A study of Mus musculus with 2 samples.

Results

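Keratin-high cells among sorted alveolar type 2 (AT2) epithelial cells of the mouse lung were examined by single-cell RNA sequencing. They were selected on a score, the share of a cell's RNA molecules that came from Krt8, Krt18, Krt19, Sfn, Lgals3, S100a6 and Anxa1. The highest 5% of the score in each library were taken as members: 319 of 6392 cells in the library labelled WT and 369 of 7380 in the library labelled IPKO, 688 of 13772 in all. The base from which they were drawn held cells with at least 500 detected genes, at most 20% mitochondrial RNA, at least 5000 molecules (unique molecular identifiers, UMIs) and at least 10% of UMIs from Sftpc, the surfactant protein C gene that marks AT2 cells. The base was 71.6% of the 8924 WT barcodes and 73.7% of the 10014 IPKO barcodes, 18938 barcodes in all.

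The study sorted EpCAM+ CD31- CD34- CD45- CD24- Sca-1- lung cells from male mice and made 1 library from wild-type (WT) mice and 1 from IP-/- (IPKO) mice, which lack the prostaglandin I2 receptor encoded by Ptgir. The series title concerns activation of this receptor in alveolar regeneration and a route through JUN and p53. No injury, treatment, age or number of animals is given in the labels used here, nor the method of the deletion. With 1 library per genotype, and members chosen from the values of the same cells, no comparison was tested: all values are descriptions, and intervals are 95% counting intervals that hold neither animal nor library variation. Intervals on levels and log2 ratios treat UMIs as independent and hold no variation between cells either.

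AT2 cells make and store surfactant and serve as progenitors of the flat type 1 (AT1) cells that carry gas exchange. After lung injury some AT2 cells pass through an intermediate state on the way to AT1 cells, known for the simple-epithelial keratins Krt8, Krt18 and Krt19, the cell-cycle regulator Sfn, stress and p53 target genes, a spread cell shape and low surfactant production. Keratins form the intermediate filaments that carry mechanical load in such cells, and Areg, Clu, Sprr1a, Itgb6 and Cldn4 are among the other genes often used to name the state.

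The depth of the members was close to that of the other cells, and 1 check went against the labels. The libraries held 127287281 UMIs (labelled WT) and 137471506 UMIs (labelled IPKO), of which members held 5903067 and 6375274. Median UMIs per cell were 17553 in members and 18357 in the rest of the base in WT, and 16794 and 17141 in IPKO. Median mitochondrial shares were 4.63% against 5.26% in WT and 3.71% against 3.91% in IPKO. Ptgir, the gene said to be deleted in IPKO, had 0 UMIs in members and rest of the library labelled WT, but 16 UMIs in members and 297 in the rest of the library labelled IPKO, which goes against the labels. Every statement below on a direction between libraries therefore refers to labels only. The libraries shared 79 barcodes, of which 1 in each library was a member.

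The members lay above a fixed quantile of the score, so they are a range of cells and not a type, and whether a distinct type lies in the tail was not tested. The lowest member scored 12.24 score-gene UMIs per 10000 UMIs in WT and 12.62 in IPKO, and the highest cell outside scored 12.22 and 12.62. Within 10% of that limit lay 42 members and 49 other cells in WT, and 66 members and 81 other cells in IPKO. The median score was 19.0 in members and 2.60 in the rest in WT, and 18.9 and 3.19 in IPKO. The highest scores were 238 and 469, and the highest 1% of cells had a median of 65.5 in WT and 47.1 in IPKO against 17.3 in both for the next 4%. Because members were taken as a fixed share of each library, their frequency cannot differ between libraries. Above 1 common value, the WT limit, lay 4.99% of the WT base (exact binomial interval 4.47 to 5.55) and 5.26% of the IPKO base (4.76 to 5.79). Above 4 times that limit lay 0.673% (0.487 to 0.905) and 0.447% (0.308 to 0.627). These intervals hold no variation between libraries, and the differences in share were not tested.

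**Figure D1:**
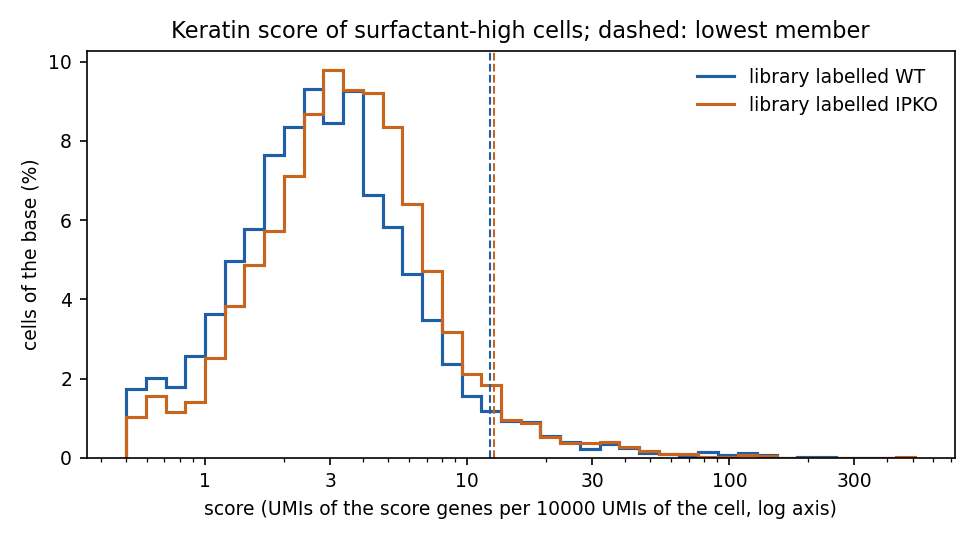
Distribution of the score over the base of each library; the x axis is the number of UMIs of the score genes per 10000 UMIs of the cell on a log axis, the y axis the share of cells in each bin, and cells below 0.5 are not drawn. Most cells of both libraries scored between 1 and 10, and the dashed lines at 12.24 (WT) and 12.62 (IPKO), the lowest members, cross the right tail where bins on both sides hold cells.

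The genes of the score are given as a description, since they chose the members. Values for a pool of cells are UMIs of a gene per 1000000 UMIs of the pool (CPM). The keratin Krt8 stood at 583 CPM in members and 96.6 in the rest in WT, and at 610 and 117 in IPKO. Its filament partner Krt18 stood at 546 against 121 and 538 against 129, and Krt19 at 161 against 19.8 and 145 against 17.6. Keratin RNA was thus present in most other AT2 cells too: Krt8 was seen in 73.0% (WT) and 77.6% (IPKO) of the rest. Outside the members the non-keratin genes were rarer than Krt8 and Krt18, but not all were rarer than Krt19. Krt19 was seen in 27.5% (WT) and 23.4% (IPKO) of the rest, and Lgals3 in 33.5% and 33.4%. Lgals3, which encodes galectin 3, stood at 559 against 30.2 CPM in WT and 584 against 34.1 in IPKO. S100a6, a calcium-binding protein gene, stood at 665 against 4.47 and 511 against 5.56. Sfn stood at 325 against 23.9 and 289 against 47.1, and Anxa1, an annexin gene, at 316 against 16.2 and 205 against 21.4.

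The score genes were not spread evenly over members. S100a6 was seen in 55.5% of members in WT and 53.1% in IPKO, and the 10 cells richest in it held 37.8% and 34.4% of its UMIs. At least 5 of the 7 genes were seen in 85.6% and 84.8% of members against 9.57% and 12.6% of the rest. A score of the 3 keratins alone would have kept 243 of the 319 WT members and 269 of the 369 IPKO members. A score of the other 4 genes alone would have kept 257 and 282, and 181 and 186 members were in the highest 5% by both.

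As a check of the name, the members carried AT2 RNA beside the score genes, and their Sftpc level was close to that of the rest. Sftpc stood at 206594 CPM in members and 212250 in the rest in WT, and at 204025 and 210264 in IPKO, a log2 ratio of -0.04 in both libraries. The base itself required a high Sftpc share, so cells that had lost it could not be members. Among 10 AT2 markers the summed level was 288047 CPM in WT members and 282137 in IPKO members, against 302084 and 299848 in the rest. Of the AT1 markers Ager, Hopx, Pdpn, Aqp5, Rtkn2, Akap5, Clic5, Cav1, Spock2 and Igfbp2, the sum was 2039 against 1479 CPM in WT and 2107 against 1551 in IPKO, with Igfbp2 at 0 in WT members and Spock2 at 0 in IPKO members. Cldn4, a tight-junction gene used to name the transitional state, had 15 UMIs in WT members and 12 in the rest, and 6 and 10 in IPKO. It was seen in 3.13% of WT members against 0.181% of the rest, and in 1.36% against 0.143% in IPKO, so its share was higher in members but few members carried it. Since the score genes chose the members, they cannot support the name "transitional".

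Ratios of members over the rest were similar in both libraries across genes. A gene was measured when its members and rest averaged 20 CPM or more in each library. A gene low in the rest, such as Sprr1a, can reach this mean through the members, so counts of higher genes are descriptions. Of 4323 such genes outside the score, 175 genes (4.05%) were at least 1.5-fold higher in members in both libraries and 99 genes (2.29%) at least 1.5-fold lower. Higher by more than 2-fold in both were 57 genes, and lower by more than 2-fold 15. Across these genes the log2 ratios of both libraries had a Pearson correlation of 0.90, where genes are not independent replicates and all share the selection rule. The median log2 ratio of all 4323 genes was 0.10 in WT and 0.08 in IPKO. When the 4 pools were scaled by median-of-ratios size factors, which set those medians to 0.00, the split was 130 higher and 138 lower genes. Without the highest 1% of the score, members had 115 higher and 53 lower genes. Of the first 175 and 99 genes, 129 and 99 were called again with size factors, and 114 and 52 without the highest 1%.

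**Figure D2:**
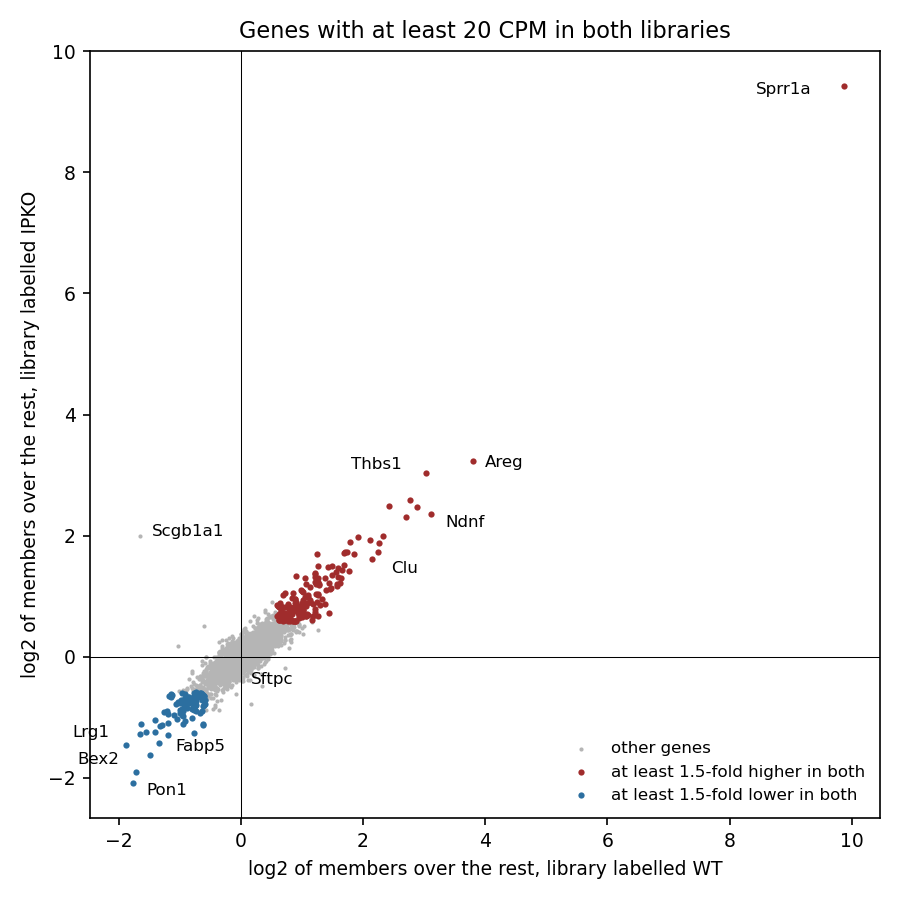
Each point is 1 of 4323 genes; the axes give the log2 ratio of pooled CPM in members over the rest of the same library, labelled WT on x and IPKO on y. The 175 higher genes (red) and 99 lower genes (blue) lie along the diagonal, Sprr1a is the highest in both, and Scgb1a1 is the 1 gene past 1.5-fold in opposite directions.

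Areg encodes amphiregulin, a ligand of the epidermal growth factor (EGF) receptor (protein-coding, ENSMUSG00000029378, GRCm38 chr5:91139599-91148432, plus strand). It stood at 220 CPM in members and 15.8 in the rest in WT and at 308 and 32.6 in IPKO, log2 ratios of 3.80 (3.69 to 3.90) and 3.24 (3.16 to 3.32). Areg was also widespread among members. After each cell was thinned to 5000 UMIs it was seen in 41.1% of WT members and 50.7% of IPKO members, against 5.66% and 9.44% of the rest. Before thinning the shares were 62.1% and 71.5% against 13.3% and 19.3%. As a measure of free RNA, the same shares were taken in cells of other types (under 5% Sftpc, at least 10 UMIs of immune, vascular or stromal markers; 37 and 124 cells with median depths of 7844 and 7691 UMIs). There Areg was seen in 0% and 2.42% after thinning, and 0 of 37 cells allow a share of up to 9.49%.

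Hbegf, encoding a second EGF receptor ligand, stood at 48.28 against 14.99 CPM in WT and 75.8 against 26.4 in IPKO, log2 ratios of 1.69 and 1.52. The other measured genes of the EGF list did not pass 1.5-fold in both libraries, so 2 of 7 were higher and none lower, and the list medians were 0.27 in WT and 0.45 in IPKO. Egfr itself stood at 5.93 CPM in members and 6.59 in the rest in WT, and at 5.96 and 7.11 in IPKO. Ereg and Epgn had 0 UMIs in the members of both libraries. For lists the minimum was a mean of 5 CPM over members and rest. At this minimum 327 of 8325 genes (3.93%) were higher and 156 (1.87%) lower, with all-gene medians of 0.09 and 0.07. A gene low in the rest can reach it through its level in members, so list counts are descriptions.

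Other leading genes encode matrix, secreted or membrane proteins. Thbs1, encoding thrombospondin 1, a matrix glycoprotein, stood at 87.6 CPM in members and 10.8 in the rest in WT, and at 83.9 and 10.3 in IPKO, a log2 ratio of 3.03 in both libraries. Thinned shares for Thbs1 were 24.76% and 23.04% of members, 3.90% and 3.62% of the rest, and 8.11% and 4.03% of the cells of other types. Tnfrsf12a, the receptor of the cytokine TWEAK, stood at 117 against 15.7 CPM and 99.3 against 17.8. Its thinned shares were 32.6% and 29.3% of members, 6.69% and 8.37% of the rest, and 16.2% and 4.84% of the cells of other types. Ndnf, encoding a secreted glycoprotein (chr6:65671590-65712326, plus strand), stood at 343 against 39.6 and 294 against 57.4. Ndnf was seen in 58.3% and 61.0% of members after thinning, against 16.2% and 22.3% of the rest and 0% and 0.806% of cells of other types. Lama3 and Lamb3 encode laminin chains of the epithelial basement membrane. Lama3 stood at 27.6 CPM in members and 5.32 in the rest in WT, and at 27.6 and 5.67 in IPKO, log2 ratios of 2.38 and 2.28, while Lamb3 had log2 ratios of 0.43 and 0.50. The integrin subunit Itgb6, which pairs with Itgav to activate TGF-beta, was higher by 2.36 and 1.94, and Itgav by 1.17 and 0.61. On the list of TGF-beta, matrix and integrin genes, 5 of 16 were higher and 1 lower, with medians of 0.38 in both libraries. The lower gene was Tgfbi at -1.43 and -0.59, and Tgfbr1, Itgb1 and Itga6 had log2 ratios between -0.21 and 0.34.

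Of 28 other transitional-state genes outside the score, 19 reached 5 CPM; 15 of these were higher in both libraries and none lower. The median log2 ratio was 1.57 in WT and 1.21 in IPKO. Genes near 0 in the rest, such as Sprr1a and Emp1, reached the minimum only through the members, so this count is a description and does not support the name. Besides Areg, Hbegf and Itgb6 they included Clu, encoding the chaperone clusterin, at 391 against 82.1 CPM in WT and 203 against 61.3 in IPKO. Krt7, another simple-epithelial keratin, stood at 162 against 33.6 and 149 against 40.9. Emp1, encoding an epithelial membrane protein, stood at 28.3 against 1.11 and 33.6 against 1.04. Nupr1, Ctsl, Msn and Sox4 were the measured genes that did not pass: Nupr1 had log2 ratios of 0.34 in WT and -0.28 in IPKO, Ctsl 0.23 and 0.14, Msn 0.72 and 0.56, and Sox4 0.43 and 0.30. Below the minimum lay Cldn4, Plaur, Ndrg1, Tnip3, Fn1, Mdk, Tm4sf1, Tubb6 and Basp1, of which Fn1, Mdk, Tm4sf1 and Basp1 had 0 UMIs in WT members.

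Sprr1a, a cornified-envelope gene of squamous epithelium (GRCm38 chr3:92483952-92485895, minus strand), had the largest ratio of the measured genes, and it came from few cells. It stood at 218 CPM in members and 0.233 in the rest in WT, and at 183 and 0.265 in IPKO, log2 ratios of 9.87 (9.32 to 10.5) and 9.43 (8.93 to 9.98). Only 45 WT members and 40 IPKO members carried any UMI of it, and the 10 richest held 71.7% and 83.5% of its UMIs. In the rest, 27 and 33 cells carried exactly 1 UMI each. Of the members with Sprr1a, 29 in WT and 27 in IPKO were in the highest 1% of the score, and 36 and 35 also carried Areg.

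**Figure D3:**
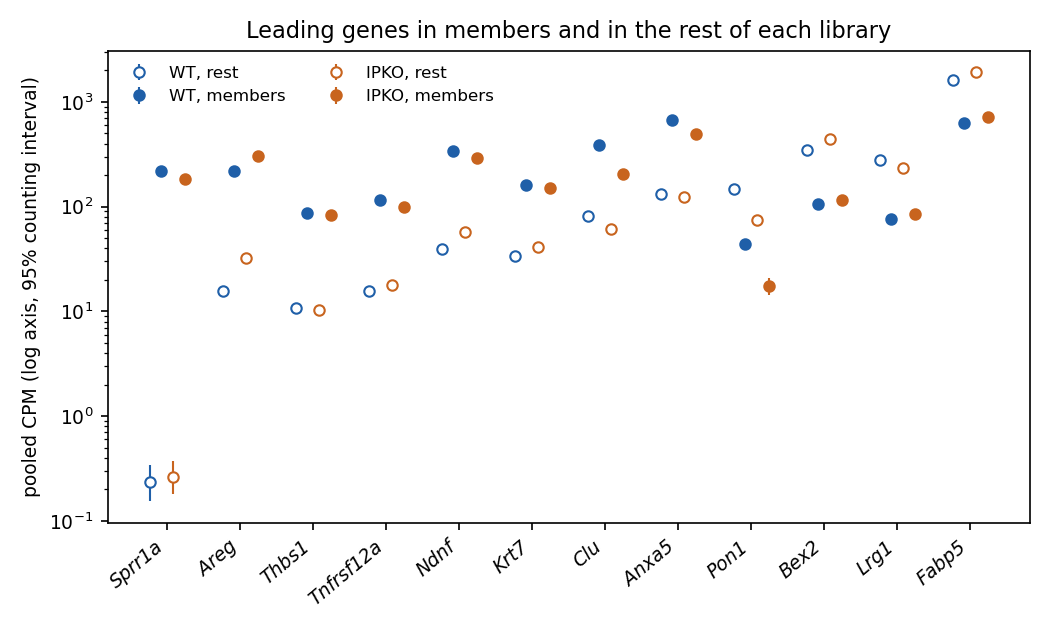
Pooled CPM on a log axis for 8 higher and 4 lower genes; filled points are members, open points the rest, blue the library labelled WT and orange IPKO, and bars are 95% Poisson counting intervals. For Sprr1a through Anxa5 both filled points lie above both open points, and for Pon1, Bex2, Lrg1 and Fabp5 each filled point lies below the open point of its library.

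Promoters were searched for the AP-1 motif because the series title names JUN, which forms AP-1 transcription factor dimers with FOS proteins. RefSeq promoter stretches of 300 bases (GRCm38.p6, from 250 before to 50 after the gene's start) were available for 134 of the 175 higher genes, 75 of the 99 lower genes and 3389 of the 4323 genes measured. The AP-1 motif TGANTCA, read on both strands since it is its own reverse complement, was present for 20 of 134 higher genes (14.9%), 1 of 75 lower genes (Pxmp4, 1.33%) and 5.72% of the measured genes. Of all 32851 promoters, 7.81% hold it. The cAMP response element TGACGTCA, also its own reverse complement, was present for 5 higher genes (Areg, Tubb2a, Plk2, Myl6 and Ywhah, 3.73%), none of the lower genes and 3.84% of measured genes, and in 1.79% of all promoters. The TEAD motif GGAATG, on either strand, was present for 16.4% of higher, 18.7% of lower and 13.8% of measured genes, and in 14.7% of all promoters. A gene counted when any of its listed starts held the motif, and genes differ in how many starts are listed, whereas the share of all promoters counts each start once. Among the 20 leading genes, 14 had a promoter and 4 held an AP-1 motif before a start. For Kcnk2 and Dclk1 that start is an alternative one inside the gene (GRCm38 chr1:189207930-189402273, minus strand, and chr3:55242364-55539068, plus strand), and which start these cells use was not tested. Their stretches are shown so that the matches can be read, 5′ to 3′ on the gene's strand, with the motif in capitals.
Sprr1a, chr3:92485971-92486047, minus strand, matches beginning 146 and 116 bases before the start: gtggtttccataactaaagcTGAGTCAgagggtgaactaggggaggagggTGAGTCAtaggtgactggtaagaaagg
Kcnk2, chr1:189344292-189344338, minus strand, match beginning 126 bases before an internal start: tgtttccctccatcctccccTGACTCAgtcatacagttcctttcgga
Cav2, chr6:17281073-17281119, plus strand, match beginning 92 bases before the start: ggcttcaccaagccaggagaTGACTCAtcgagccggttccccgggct
Dclk1, chr3:55461649-55461695, plus strand, match beginning 59 bases before an internal start: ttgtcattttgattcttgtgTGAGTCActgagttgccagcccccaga
Sprr1a is the only one of the 4 with a pair of matches in this window. A match describes letters and not binding, and in the Areg window the AP-1 letters were not found.

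Jun, Fos, Fosb and Egr1 were nearly level between members and the rest. Jun stood at 755 CPM in members and 770 in the rest in WT, and at 1422 and 1443 in IPKO, log2 ratios of -0.03 and -0.02. Fos had log2 ratios of 0.07 and -0.07, Fosb -0.24 and -0.00, and Egr1 -0.08 and 0.00. Only Maff, a small MAF transcription factor gene (1.49 and 0.83), and Ier3, an early response survival gene (0.63 and 0.71), were higher in both libraries, 2 of 17 measured genes with medians of 0.24 and 0.24. A further pair of the list fell below 5 CPM. Myc had 53 UMIs in WT members and 39 in the rest, and 53 and 80 in IPKO. Fosl1 had 13 and 14 UMIs in WT, and 2 and 8 in IPKO. Since the rest held 115806457 UMIs in WT against 5903067 in members, both were higher per UMI in members, on few counts.

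The p53 list split into higher and level members. Trp53, which encodes p53, stood at 18.8 CPM in members and 10.2 in the rest in WT, and at 20.2 and 9.35 in IPKO. Its target Cdkn1a, the cell-cycle inhibitor p21, stood at 111 against 40.6 and 93.5 against 43.1, log2 ratios of 1.45 and 1.12. Gdf15, a stress-induced cytokine, was higher by 2.22 and 2.36, the apoptosis-linked junction gene Perp by 1.47 and 1.14, and the kinase gene Plk2 by 1.21 and 0.75. Level or lower were Mdm2, the p53 ubiquitin ligase, at -0.10 and -0.26, Ccng1 at 0.13 and 0.13, Zmat3 at 0.11 and -0.06, and Sesn2 at -0.43 and -0.79. In all 5 of 16 were higher and none lower. Gdf15 was low in the rest, at 1.31 CPM in WT and 0.61 in IPKO without the 3% of cells richest in it. Its place in this count is therefore a description. Cells of other types also carried Trp53 and Cdkn1a often: after thinning Cdkn1a was seen in 27.9% and 28.5% of members, 16.2% and 16.5% of the rest and 35.1% and 21.0% of the cells of other types, so these shares do not separate members from other-type background, and the part of free RNA in them was not tested.

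Cytoskeleton and calcium-binding genes were often higher. Of 26 actin and tubulin genes 17 were higher and none lower (medians 0.72 and 0.68), among them the tubulin Tuba1a (2.20 and 2.35), the actin crosslinker Flna (1.57 and 1.17), Tmsb10 (1.26 and 1.51) and Actb (0.72 and 0.72). Of 14 S100 and annexin genes outside the score 10 were higher and none lower (medians 0.99 and 0.87). S100a14 had log2 ratios of 2.76 in WT and 2.59 in IPKO. Anxa5 stood at 665 against 132 and 489 against 123. After thinning Anxa5 was seen in 85.0% and 81.8% of members and 45.0% and 42.4% of the rest. Cells of other types also carried it often (75.7% and 53.2%), and the part of free RNA was not tested. Anxa2, Anxa3 and Anxa5 are also on the transitional-state list, so these lists are not separate evidence. S100g (-0.24 and 0.05) and Anxa6 (0.01 and 0.20) did not pass. Of 14 junction genes 1 was higher, Ocln, encoding the tight-junction protein occludin (0.76 and 1.02), while Epcam, the surface protein used for the sort, had 0.65 and 0.58 and Cdh1 -0.03 and 0.07.

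AT1 genes were moderately higher. Of 18 measured genes 10 were higher in both libraries and none lower, with medians of 0.71 and 0.68. Cav2, encoding a caveolar coat protein, stood at 56.1 against 19.9 CPM in WT and 70.3 against 24.8 in IPKO. Aqp5, the water channel of AT1 cells, was higher by 0.84 and 0.71, the homeobox gene Hopx by 0.94 and 0.68, and the chloride channel protein gene Clic5 by 0.85 and 0.97. Ager, the most abundant AT1 marker, had log2 ratios of only 0.27 and 0.28. Defining AT1 genes below the minimum were mixed. Cav1, the main caveolar protein gene, stood at 5.59 against 0.950 CPM in WT and 12.4 against 1.80 in IPKO. Pdpn stood at 1.02 against 0.570 and 3.14 against 1.33, on 6 and 20 UMIs in members. Rtkn2 stood at 2.20 against 2.13 and 1.25 against 1.99.

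AT2 identity genes were lower in part. Of 22 AT2 identity genes 4 were lower and 1 higher, with medians of -0.31 and -0.33. Fabp5, a fatty acid binding protein gene, stood at 636 against 1612 CPM in WT and 716 against 1915 in IPKO. Il33, the alarmin that AT2 cells store, was lower by 0.91 and 1.07 (log2 ratios of -0.91 and -1.07), Abca3, the lipid pump of surfactant-storing lamellar bodies, stood at -0.85 and -0.76, and Chil1 at -0.62 and -1.12. The higher gene was Ctsh, the protease that processes surfactant proteins, at 1991 against 844 CPM and 2002 against 874. The surfactant protein genes did not pass: Sftpb had -0.01 and -0.08, Sftpa1 0.17 and 0.06, and Sftpd 0.39 and 0.36. The lineage factors Nkx2-1 (-0.19 and -0.02), Cebpa (-0.16 and -0.10) and Etv5 (-0.23 and -0.28) did not pass either.

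Fatty acid and sterol synthesis was lower over several enzymes. Of 20 genes 6 were lower and none higher, with medians of -0.37 and -0.50. Scd1, the desaturase that makes monounsaturated fatty acids, stood at 4316 against 8312 CPM in WT and 2969 against 6378 in IPKO. Fasn, the fatty acid synthase gene, had -0.67 and -0.67, Acly -0.73 and -0.59, and Elovl1 -0.95 and -0.98. The choline enzyme genes of phospholipid synthesis, Pcyt1a (0.06 and 0.21) and Chka (0.00 and 0.38), did not pass.

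Pon1, encoding the lipoprotein-associated enzyme paraoxonase 1 (chr6:5168090-5193946, minus strand), was the lowest by the smaller of its ratios. It stood at 43.7 against 148 CPM in WT and 17.4 against 73.8 in IPKO, log2 ratios of -1.76 and -2.08. Bex2 stood at 107 against 350 and 117 against 439. The secreted glycoprotein gene Lrg1 stood at 76.6 against 281 and 85.0 against 233, and Lcn2, a defence protein gene, had -0.57 and -0.63. Cst8, Acoxl, Fam126b, Trf, Fabp12, Ddhd1, Rbms3 and Kcnj13 completed the 12 lowest, with log2 ratios between -1.65 and -1.11.

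Inflammatory and stress lists were mixed. In the NF-kB list 4 of 10 genes were higher, Nfkb2 (2.00 and 1.53), the inhibitor gene Nfkbia (1.60 and 1.47), Relb (1.80 and 0.98) and Tnfaip3 (1.56 and 0.72), and Lrg1 was lower. Small heat shock genes were higher, Hspb1 by 1.33 and 0.95 and Cryab by 1.57 and 1.21, while Hspa8 (0.19 and 0.31) and Dnaja1 (-0.03 and 0.06) did not pass, so 4 of 16 heat shock genes were higher. In the antioxidant list Gpx2 (2.56 and 1.72) and Srxn1 (2.52 and 1.43) were higher, 2 of 17. Both were low in the rest. Without the 3% of cells of each pool richest in the gene, Gpx2 stood there at 3.19 and 2.99 CPM. Srxn1 stood at 4.04 and 3.85, so this count is a description. For the MHC class II list, H2-Ab1 stood at 493 against 283 CPM in WT and 721 against 466 in IPKO, and 2 of 6 genes were higher. Of 14 MHC class I genes none passed in both libraries in either direction, but the list median was 0.64 in WT, past the 1.5-fold limit of 0.58, and 0.32 in IPKO. None of the 19 unfolded protein response genes, 25 nuclear respiratory genes or 26 ribosomal protein genes passed 1.5-fold in both libraries in either direction. Of 9 YAP and TAZ genes, Cyr61 (1.12 and 1.32), Ajuba (2.11 and 1.08) and Ptpn14 (2.48 and 1.39) were higher and Amotl2 stood at -0.30 and -0.29. The list medians were 0.08 in WT and 0.13 in IPKO, near the all-gene medians of 0.09 and 0.07. Trimmed in the same way, the rest stood at 0.71 and 2.94 CPM for Ajuba and at 1.72 and 1.94 for Ptpn14.

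Prostanoid and cAMP genes bear on the receptor of the study. Ptgs2, the inducible cyclooxygenase, stood at 54.0 against 22.4 CPM in WT and 67.4 against 27.5 in IPKO, log2 ratios of 1.27 and 1.30. Ptgs1, the constitutive enzyme, stood at 80.6 against 136 and 72.5 against 113, log2 ratios of -0.75 and -0.64. These were 1 higher and 1 lower of 5 measured genes. The receptors were near or below detection: Ptger2 and Ptgdr had 0 UMIs in members of both libraries and Ptgir 0 and 16. Of 9 cAMP response genes none passed 1.5-fold in both libraries in either direction, with Crem at 0.73 and 0.48 and Pde4d at -0.33 and -0.06.

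**Figure D4:**
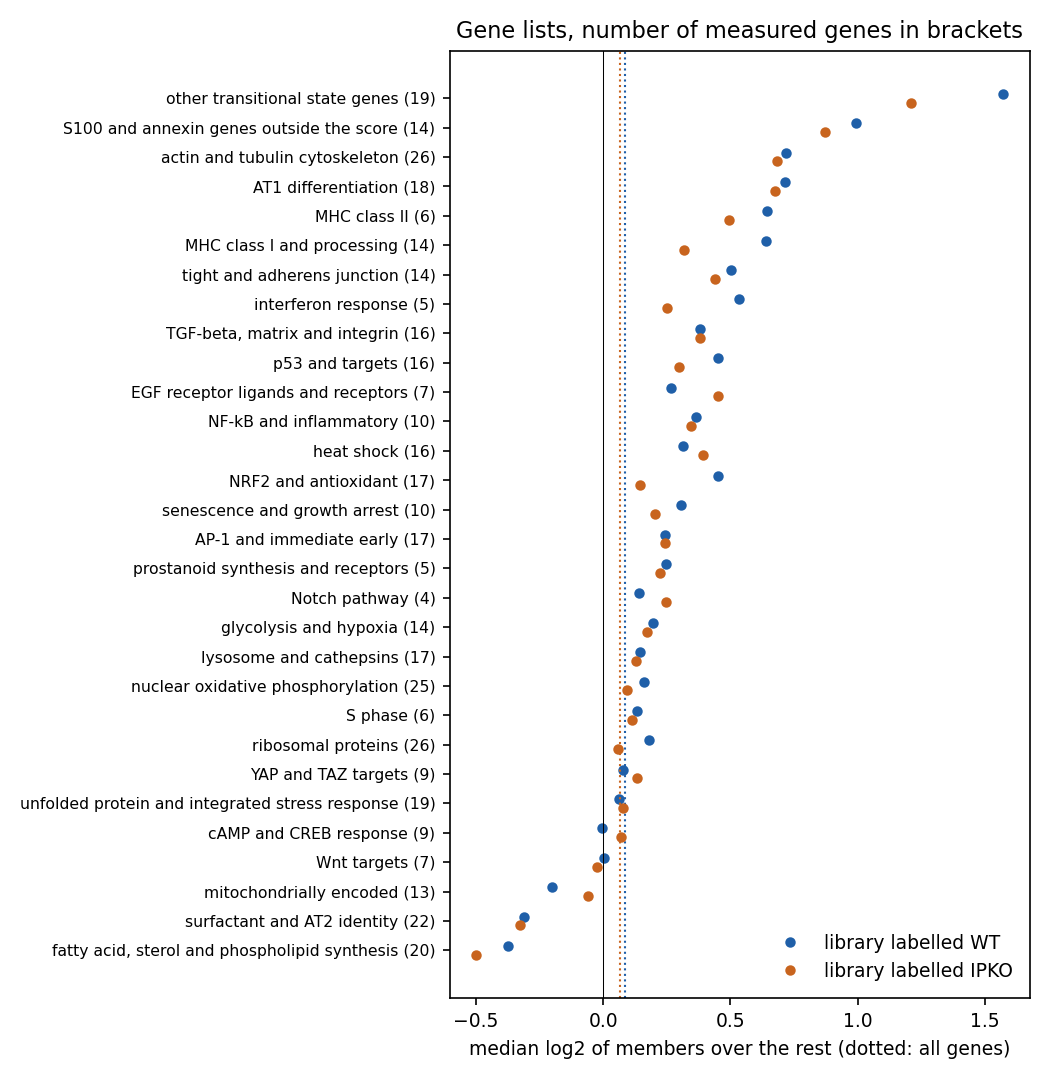
Median log2 ratio of members over the rest for each gene list with at least 4 genes measured at 5 CPM, blue for the library labelled WT and orange for IPKO; dotted lines are the medians of all genes, 0.09 and 0.07. The transitional-state list is highest (1.57 and 1.21) and the fatty acid and sterol list lowest (-0.37 and -0.50).

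Some lists changed stepwise along the score and others did not. Over the lowest 50% of the score, the transitional-state list had medians in WT of 0.23 for the 25 to 50% bin, 0.60 for 10 to 25%, 1.05 for 5 to 10%, 1.52 for 1 to 5% and 2.59 for the highest 1%. The IPKO medians were 0.19, 0.50, 0.81, 1.34 and 2.10. Areg stood at 377 CPM in the highest 1% of WT, 180 in the next 4%, 86.5 in the 5 to 10% bin and 7.37 in the lowest 50%. Bex2 ran the other way, at 44.0, 123, 222 and 388 CPM. The AT2 identity list was near 0 below the members (-0.02 in WT and -0.13 in IPKO for the 5 to 10% bin) and stood at -0.75 and -0.35 in the highest 1%, where Sftpc was 191041 and 187640 CPM. Other lists peaked below the members or within them. The AP-1 list in WT had medians of 0.24, 0.42, 0.48, 0.43 and 0.34 from the 25 to 50% bin to the highest 1%. Jun in WT was highest in the 10 to 25% bin at 887 CPM, against 720 in the highest 1% and 704 in the lowest 50%. The EGF list in WT was 0.37 in the 5 to 10% bin and 0.19 in the highest 1%, while in IPKO it was 0.35 and 0.87.

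**Figure D5:**
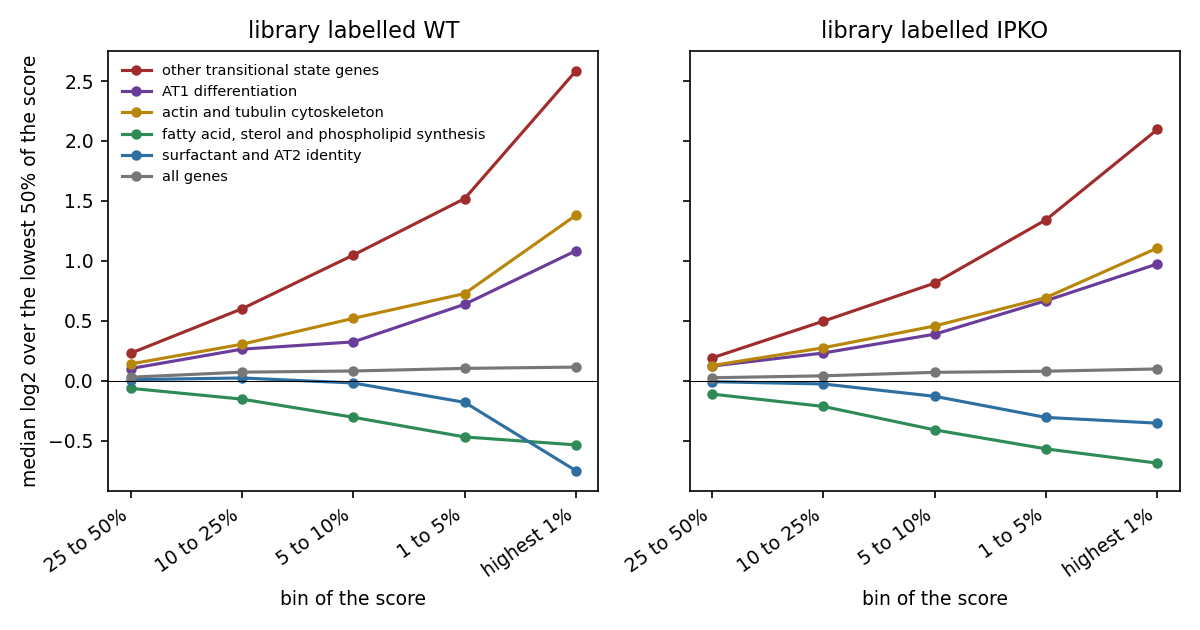
Median log2 ratio of 5 gene lists and of all genes for each bin of the score over the lowest 50%, one panel per library. The transitional-state list climbs to 2.59 (WT) and 2.10 (IPKO) in the highest 1%, while the AT2 identity list reaches -0.75 and -0.35.

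Markers of other cell types differed by type: some were absent, while single ciliated, mesenchymal and club markers were seen in many members. All 7 mesothelial markers, Msln and Upk3b among them, were at 0 in both libraries, and the basal-cell keratins Krt5, Krt14, Krt15 and Krt17 were at 0 in members. The median over cells was 0 UMIs of 5000 for macrophage, neutrophil, T and NK cell, B cell, endothelial and cycling markers. The macrophage sum (2035 and 1990 CPM) was mostly Lyz1 at 2020 and 1917 CPM, a gene that some AT2 cells express, with Adgre1, C1qa and C1qc at 0. In IPKO members 6 of the 16 macrophage and monocyte markers were at 0, but others were higher than in the rest, from few cells. Chil3 stood there at 23.5 against 2.32 CPM and Ctss at 14.3 against 0.595, each in 5 members, and Ptprc at 5.65 against 0.587 in 6 members. The mesenchymal sum (170 and 162 CPM) was mostly Gsn at 169 and 161 CPM, 1 of the 20 leading genes, with Col1a2, Pdgfra and Pdgfrb at 0. Neutrophil and T and NK markers summed to 0.508 and 0.169 CPM in WT members but to 124 and 63.1 CPM in IPKO members, where 3 and 2 cells held 3 or more such UMIs of 5000. At least 3 mesenchymal UMIs of 5000 were held by 4.39% of WT members against 0.609% of the rest, and by 8.13% against 0.556% in IPKO. Club markers were lower by this measure, at 14.4% against 47.5% in WT and 6.78% against 17.1% in IPKO. Macrophage markers, with Lyz1 counted among them, stood at 20.1% against 21.0% and 18.7% against 20.1%. Ciliated markers reached it in 8.46% of members against 3.75% of the rest in WT and in 20.1% against 7.43% in IPKO, and their part in the results was not tested. They summed to 169 against 107 CPM in WT and 329 against 165 in IPKO, mostly from Tppp3 and Sec14l3, with Foxj1 at 1 UMI in WT members and 15 UMIs, all in 1 cell, in IPKO members. With every cell holding 3 or more UMIs of immune, endothelial or stromal markers left out, Lyz1, Ctss and Gsn aside, 171 genes were higher and 96 lower, 164 and 90 of them shared with the full count. Such cells were 7.52% of members and 6.73% of the rest in WT, and 10.6% and 7.90% in IPKO. No doublet caller was run, and the part of doublets in these results was not tested.

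Cycling cells were rare. The markers Mki67, Top2a, Cdk1, Ccnb1, Birc5, Ube2c and Cenpf summed to 32.7 CPM in WT members against 1.04 in the rest, and to 21.3 against 3.58 in IPKO. At least 10 such UMIs were held by 2 members and 1 other cell in WT and by 3 members and 3 other cells in IPKO, so these sums rest on few cells.

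Between libraries, part of the differences among members was also present among the rest. Of 4593 genes averaging 20 CPM or more over the members of both libraries, 81 (1.76%) were at least 1.5-fold higher and 86 (1.87%) at least 1.5-fold lower in members of the library labelled IPKO than in those labelled WT. Among the rest 80 (1.74%) were higher and 71 (1.55%) lower. Of the 167 genes past 1.5-fold among members, 93 were past it in the same direction among the rest. With median-of-ratios size factors the split among members was 63 higher and 112 lower. Since each genotype is 1 library, genotype and library cannot be told apart.

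Early response genes showed that shared difference. Jun had a log2 ratio of IPKO over WT of 0.91 (0.86 to 0.97) among members and 0.91 (0.89 to 0.92) among the rest. Fosb had 1.35 and 1.12, and Egr1 1.09 and 1.01. The list medians were 0.50 among members and 0.66 among the rest. Trp53 had 0.11 (-0.27 to 0.49) and -0.12, Cdkn1a -0.25 (-0.41 to -0.09) and 0.09, and Mdm2 -0.15 (-0.52 to 0.23) and 0.02.

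Leading genes of the members differed less evenly between libraries. Areg had a log2 ratio of IPKO over WT of 0.49 (0.38 to 0.59) among members and 1.04 (0.96 to 1.12) among the rest. Clu had -0.94 (-1.04 to -0.84) and -0.42, and Ndnf -0.22 and 0.54. The antioxidant genes Srxn1 and Gpx2 stood at -1.14 and -0.82 among members, and at -0.04 and 0.02 among the rest, and Asns, the asparagine synthetase gene of the integrated stress response, at -1.36 and 0.02. The differences between members and rest in these values were not tested.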

How the data were processed

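Per the labels' protocols, libraries were made with 10x 3' kits. Per the submitters' processing notes, Cell Ranger 4.0.0 and GRCm38 (mm10) were used. The deposited matrices hold raw UMI counts per gene and barcode, and the authors' further filters are not given in the sources used here. UMIs were summed per pool of cells (members or rest of a library) with Python 3.11.15, numpy 2.4.6, scipy 1.17.1 and pandas 2.3.3, and expressed as CPM. Log2 ratios carry exact conditional binomial intervals, shares exact Clopper-Pearson intervals and levels exact Poisson intervals, all at 95% and for counting error only. A pool at 0 was set to a floor of 3 counts. Ratios were checked on simulated counts. No doublets were removed.

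Members and gene lists were chosen with earlier results of these data known. Named genes were the score genes, Sftpc, Jun, Trp53, Cdkn1a, Mdm2, Ptgir and Areg, the 20 highest and 12 lowest genes by the smaller absolute log2 ratio of both libraries (20 CPM), up to 4 per list, and the 6 largest library differences each way; some genes behind small counts were named after their values were seen. 1 gene that the rule names is not reported here. List genes beyond these are given to show which did and did not pass. Alternatives comprised other score limits, score genes, scalings, cell filters and gene filters. Timp2, Trf and Tmx2 overlap another gene on the same strand and are uncertain.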

Additional observations from a re-analysis of the deposited data

Results flagged for a closer look

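Among the named genes, some of which were named for their difference between libraries, 10 had members above the rest in 1 library and below it in the other. Both counting intervals, which hold no variation between cells, were off 0, and the differences were not tested. Scgb1a1, the club-cell secretoglobin gene, had the largest, IPKO minus WT 3.65 on the log2 scale (-1.66 in WT, 2.00 in IPKO). In IPKO members 1 cell held 6943 of its 8074 UMIs (86.0%). Without the 3% of cells of each pool richest in Scgb1a1, the IPKO ratio was -0.94, and the median cell stood at 72.9 CPM in IPKO members against 129 in the rest, and at 129 against 415 in WT.

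For Gem, a small GTPase gene, the difference was 1.12 (-0.61 and 0.51), with members level between libraries at 24.9 and 25.1 CPM and the rest at 38.0 and 17.6. For Mt1, a metallothionein gene, it was -0.91 (0.72 and -0.19), for Gsta3, a glutathione transferase gene, -0.81 (0.34 and -0.47), and for Nupr1, a stress-induced regulator on the transitional-state list, -0.62 (0.34 and -0.28). Without the 3% of cells of each pool richest in the gene, Nupr1 was lower in members of both libraries, at -0.15 in WT and -0.46 in IPKO. Trimmed in the same way, Mt1 stood at 0.63 and -0.28 and Gsta3 at 0.22 and -0.59. Smaller ones were Tmx2 at 0.61, Rbm27 at 0.57, S100g at 0.29, mt-Cytb at 0.12 and Rps19 at -0.10. Tmx2 and Rbm27 kept their signs in all 25 alternatives in both libraries. S100g in IPKO kept its sign in 20 of 25, and mt-Cytb in IPKO and Rps19 in WT in 22 of 25.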

How the results depend on the processing

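The 175 higher and 99 lower genes all kept their direction in both libraries under 24 alternatives, of which 22 were planned and 2 chosen after seeing the data. Of these, 4 (the CPM minimums and the 2-fold limit) leave the ratios as they were and could not change a direction. CPM without Sftpc and score genes, and median-of-ratios size factors, shift all ratios of a library by the same small amount. They could not turn a gene past 1.5-fold either. The other settings drew on the same libraries, so kept directions are not independent support. A further alternative, trimming cells per gene, was also chosen after seeing the data. The 32 leading genes kept their sign throughout. Counts of genes past the limit (higher and lower in members, then higher and lower in IPKO over WT among members) moved by over 1.5 times in 7 settings. They were 307, 182, 189 and 184 with the highest 2% of the score (the cause was not tested) and 327, 156, 347 and 228 at a mean of 5 CPM. They were 95, 56, 39 and 38 at 50 CPM, 1037, 379, 1259 and 783 with no filter except 1 UMI in every pool, and 57, 15, 26 and 23 at 2-fold. With the highest 10% of the score 101 genes were higher and 32 lower in members, and without the highest 1% 115 and 53. Among named genes, Scgb1a1 in IPKO was the only value past 1.5-fold to reverse: -0.46 at an Sftpc share of at least 20% and -0.94 without the 3% richest cells. Values under 1.5-fold were not counted in this, and some changed sign, among them Nupr1 in WT, which ranged from -0.34 to 0.93. List medians near 0 (cAMP, Wnt, YAP and TAZ, unfolded protein response, and ribosomal proteins in IPKO) changed sign in some settings, and prostanoid, NF-kB and senescence medians did so at 50 CPM, where few of their genes remain. No paired analysis was possible because each genotype has 1 library.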
